A study of Mus musculus with 12 samples.

Results

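The G1 cyclins, the kinases that they activate, the inhibitor p27 and the retinoblastoma protein were followed through the first 6 h of retinoic acid (RA) exposure in mouse embryonic stem cells. The 10 genes were taken by name (Ccnd1, Ccnd2, Ccnd3, Ccne1, Ccne2, Cdk2, Cdk4, Cdk6, Cdkn1b and Rb1), and every probe set that the platform annotation gives to one of them was used. This gave 28 of the 45037 probe sets tested, and 10 of 18193 genes. A probe set is a group of short probes on the array that reads 1 stretch of a transcript. No cut on the values was used to choose the genes, but earlier results of these data were known when they were chosen. No filter on low values was used, so all 28 were tested, among them 6 that were below the median of all values on all 12 arrays. Of the 28, 7 carry a suffix that marks probes which may read more than 1 transcript (_s_at, _x_at or _a_at), Ccnd2 and Cdk4 among them.

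KH2, the cell line used, is kept undifferentiated on a layer of feeder cells. Each of 4 groups had 3 arrays, with the replicate letters A, B and C. Cells had either no RA, or 2, 4 or 6 h of 0.3 µM RA, given together with a differentiation medium. The labels do not say that untreated cells received this medium without RA, so a difference from untreated cells covers the medium as well as RA. KH2 is a single cell line, feeder cells may be in the samples, and nothing in the labels says whether the replicates came from separate cultures, so the p-values speak only for the spread among these arrays, which could be technical in part or whole. The labels give no other allele, transgene or treatment.

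In the G1 phase of the cell cycle, D-type cyclins bind the kinases Cdk4 and Cdk6, and E-type cyclins bind Cdk2. These complexes phosphorylate the retinoblastoma protein and its relatives, which releases E2F factors and allows entry into S phase. Inhibitors of the Cip/Kip family, p27 among them, and of the INK4 family hold the kinases back. Mouse embryonic stem cells are known for a short G1 phase and for high cyclin E activity, and G1 lengthens when they differentiate.

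Among the untreated arrays, replicate C was unlike the others. Over all probe sets its Pearson correlation with A and with B was 0.993, where A and B correlated at 0.997. For 18 of 20 feeder fibroblast markers the signal in C was below the mean of A and B, with a median log2 difference of -0.57 (Lum and Fap were below the overall median on all 12 arrays). The log2 of their summed level was 13.34 in untreated replicate C, against 13.68 in A and 13.84 in B, and it spanned 13.55 to 13.75 at 2 h, 13.64 to 13.86 at 4 h and 13.47 to 13.68 at 6 h. Primitive endoderm markers were lower in C for 7 of 7 genes. Stem cell markers were present, with a log2 summed level of 16.27 to 16.35 in untreated cells, 16.26 to 16.29 at 2 h, 16.07 to 16.12 at 4 h and 16.03 to 16.09 at 6 h. Trophoblast markers had a log2 summed level of 9.39 to 9.46, 9.44 to 9.55, 9.61 to 9.78 and 9.66 to 9.87 over the same groups in order of time. Of these markers, Elf5 and Gata3 were below the overall median on all 12 arrays. Such sums are of linear signals and weigh the brightest genes most. By gene, 6 of 10 stem cell markers were below untreated cells at 4 h and 6 at 6 h (limma adjusted p under 0.05), and 0 above. Their median log2 differences were -0.38 and -0.37. Over all genes, 12.5% and 13.1% were lower. Of 6 trophoblast markers, 1 was above untreated cells at 4 h and 1 at 6 h, and 0 below. The shares of all genes that were higher were 11.2% and 13.3%. In bulk RNA, fewer cells of a type and less RNA per cell cannot be told apart.

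The same array stood apart for several of the G1 genes. Replicate C minus the mean of A and B was -0.86 and -0.92 on the brighter probe sets of Cdk6, -0.65 for Ccne2, -0.74 to -0.39 on 6 of the 7 probe sets of Ccnd2, -0.38 to -0.25 for Ccnd1 and 0.94 on the brighter probe set of Cdkn1b. Ccne1 and Cdk4 differed by less than 0.05 on each of their probe sets. The part of feeder cells or of this array in the results was not tested. Each difference from untreated cells is also given without replicate C where that changes its call, and the comparison of 6 h with 2 h, which uses no untreated array in its difference, is given beside it.

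**Figure D1:**
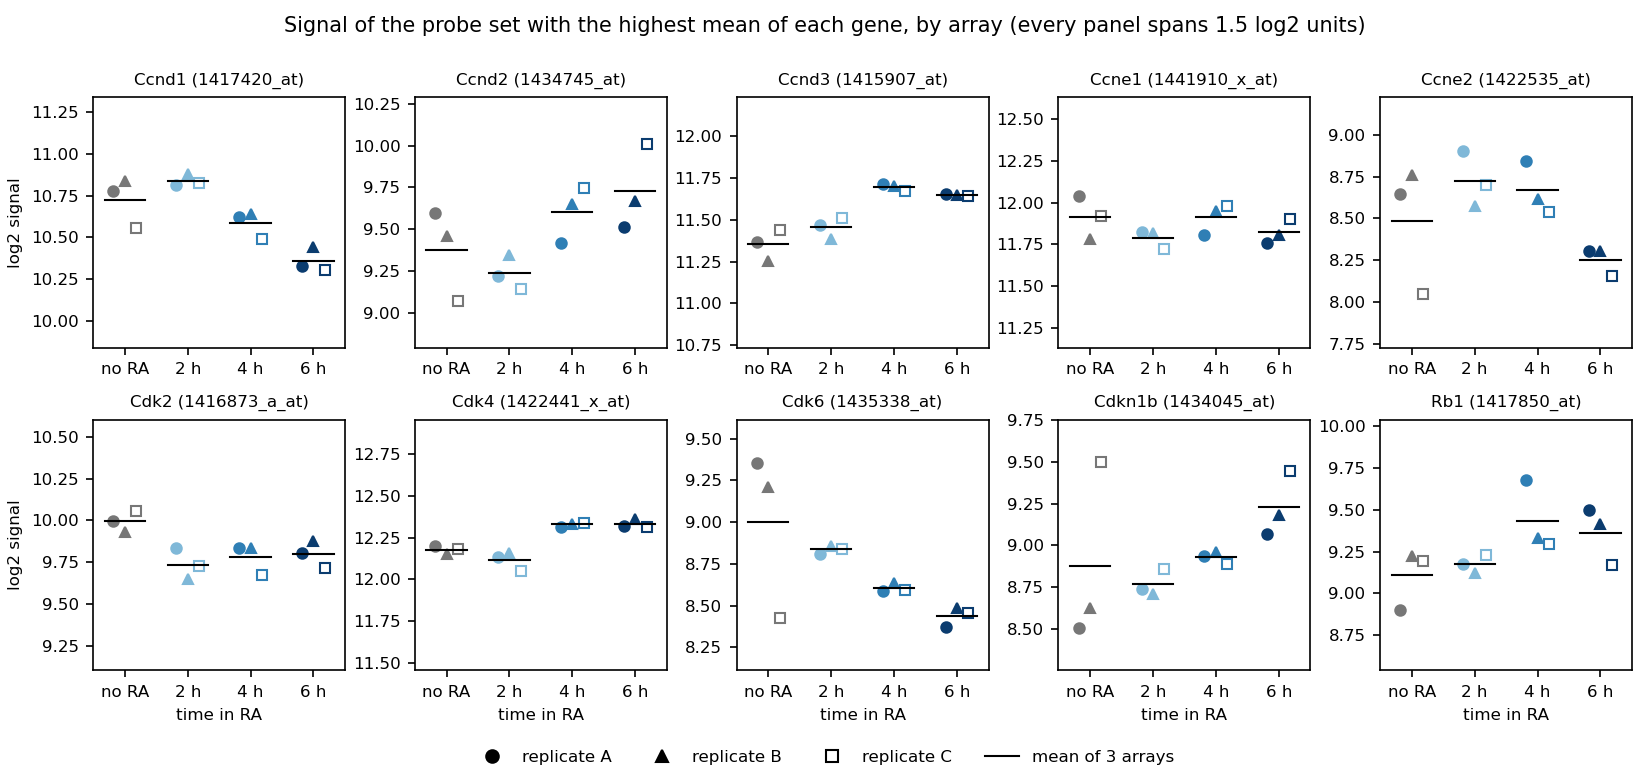
Log2 signal (vertical axes) on each of the 12 arrays for the probe set with the highest mean of each of the 10 genes, by time in RA (horizontal axes). Symbols mark replicates A, B and C, black lines the means of 3 arrays, and every panel spans the same 1.5 log2 units. Ccnd1 reads lowest at 6 h, Ccnd3 and Cdk4 read higher at 4 and 6 h than in untreated cells on every array, and untreated replicate C lies far from A and B for Ccne2, Cdk6 and Cdkn1b.

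Ccnd1 and Ccnd2 moved in opposite directions between 2 and 6 h. At 6 h Ccnd1 was lower than at 2 h on 2 of its 3 probe sets, and Ccnd2 was higher on 7 of 7. Cdk4 was higher on 3 of 3. Ccnd3, Ccne1, Ccne2, Cdk2, Cdk6, Cdkn1b and Rb1 had no probe set past the threshold in this comparison.

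In total, 12 of the 28 probe sets differed between 6 and 2 h at a Benjamini-Hochberg adjusted p under 0.05 (limma), the rule for a call throughout, 10 higher and 2 lower. Over all probe sets on the array the share was 22.9%, with 13.0% higher and 9.85% lower. Ccnd2 alone gave 7 of the 12, so the count weighs it most. With 1 probe set for each gene, the one with the highest mean, 3 of the 10 genes were called, against 28.5% of all genes, with p adjusted over all 45037 probe sets. The median difference of the 28 probe sets was 0.13, against -0.03 for all probe sets.

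Against untreated cells, 0, 3 and 9 of the 28 probe sets were called at 2, 4 and 6 h. The shares over the whole array were 1.81%, 18.7% and 20.6%. At 2 h, 3 of the 28 had an unadjusted p under 0.05. The share of all probe sets at that unadjusted p was not counted, so this count has no background. The 3 calls at 4 h were 2 higher and 1 lower (9.34% and 9.36% of all probe sets), and the 9 at 6 h were 6 higher and 3 lower (10.8% and 9.83%). Leaving out untreated replicate C gave 2 higher and 5 lower calls at 4 h, 5 higher and 6 lower calls at 6 h, and 3 lower calls at 2 h. Over all probe sets that fit called 4497 higher and 4647 lower at 4 h, 5464 and 5155 at 6 h, and 589 and 945 at 2 h. By the probe set with the highest mean, 0, 1 and 3 of the 10 genes were called, against 2.03%, 23.7% and 26.4% of all genes. The counts by gene were thus near or under the share of the whole array, and the genes are described one by one below.

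Between 2 and 4 h, 7 of the 28 were called, 6 higher and 1 lower, against 16.3% of all probe sets (9.24% higher and 7.09% lower). Between 4 and 6 h none was called by limma, against 0.173% of all probe sets. An unadjusted p under 0.05 was found for 2 of the 28, again without a count over all probe sets. The F test, which asks for any difference over the 4 groups, called 11 of the 28 probe sets in 4 genes, Ccnd1, Ccnd2, Ccnd3 and Cdk4, against 25.9% of all probe sets. The comparisons against untreated cells share the same 3 untreated arrays, and those against 2 h the same 3 arrays at 2 h, so their counts are not independent of each other.

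Ccnd1 encodes cyclin D1, which links growth factor signals to Cdk4 and Cdk6. Its probe set 1448698_at read 10.91, 10.88 and 10.63 in untreated cells, 10.82, 10.93 and 10.77 at 2 h, 10.34, 10.51 and 10.48 at 4 h, and 10.24, 10.25 and 10.36 at 6 h. The 4 and 6 h arrays all lay below the 6 arrays of no RA and 2 h. The mean was 10.29 ± 0.07 at 6 h and 10.84 ± 0.08 at 2 h (SD, n = 3 each), a log2 difference of -0.55 ± 0.09 (SE of the limma fit, adjusted p = 0.000832), or 1.47-fold lower.

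Against the untreated mean of 10.81 ± 0.15 (SD, n = 3), the 1448698_at signal of Ccnd1 fell by 0.36 ± 0.09 at 4 h and fell by 0.52 ± 0.09 at 6 h (SE, limma adjusted p = 0.0126 and 0.00117). The 2 h difference was 0.03 ± 0.09 (adjusted p = 0.904). The fall was therefore found after 2 h, and the step between 2 and 4 h passed on its own (-0.39 ± 0.09, adjusted p = 0.00957). The 4 h call against untreated cells was lost without the 4 h replicate A and in a fit of the 6 compared arrays alone.

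On 1417420_at, the Ccnd1 probe set with the highest mean, the 6 h arrays (10.33, 10.44 and 10.30) lay below the 2 h arrays (10.81, 10.88 and 10.83) and the untreated arrays (10.78, 10.84 and 10.56). The log2 difference at 6 h was -0.48 ± 0.08 against 2 h and -0.37 ± 0.08 against no RA (adjusted p = 0.00127 and 0.00706). At 4 h it was -0.14 ± 0.08 against no RA (adjusted p = 0.292), and without untreated replicate C -0.22 ± 0.07, which passed (adjusted p = 0.0489). The third, dimmer Ccnd1 probe set, 1417419_at, had another course. It averaged 8.88 ± 0.22 in untreated cells, 8.55 ± 0.06 at 2 h, 8.59 ± 0.22 at 4 h and 8.54 ± 0.02 at 6 h (SD, n = 3 each), so its difference of 6 h from 2 h was -0.0061 ± 0.12. None of its comparisons passed in the main fit of all arrays. It was called lower than no RA at 6 h with the dim filter, the trended and robust prior and array weights, which keep all arrays. Without untreated replicate C it was lower than no RA at 2, 4 and 6 h (-0.45, -0.41 and -0.46, limma adjusted p = 0.0411, 0.0171 and 0.00822), and without the 4 h replicate B it was called at 4 and 6 h. The probe sets of Ccnd1 correlated over the 12 arrays with r between 0.38 and 0.89.

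Ccnd2 encodes cyclin D2, which binds the same kinases. Its probe set 1430127_a_at read 8.49, 8.39 and 8.05 in untreated cells, 8.15, 8.34 and 8.03 at 2 h, 8.48, 8.66 and 8.86 at 4 h, and 8.71, 8.98 and 9.25 at 6 h. All 6 h arrays were above all untreated and 2 h arrays, while those of 4 h overlapped with untreated cells. The log2 difference of 6 h from 2 h was 0.81 ± 0.15 (SE, limma adjusted p = 0.00245), a 1.75-fold rise, and from no RA 0.67 ± 0.15 (adjusted p = 0.00777), a 1.59-fold rise.

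All 7 Ccnd2 probe sets were higher at 6 h than at 2 h, by 0.49 to 0.94 (adjusted p = 0.00245 to 0.0318), and the arrays of these groups did not overlap on any of them. They varied together over the 12 arrays, with a median pairwise r of 0.94 and a lowest r of 0.72. The widest difference was that of 1448229_s_at, with 8.27, 8.45 and 9.10 at 6 h, against 7.50, 7.76 and 7.74 at 2 h. Replicate C was the highest of the 6 h arrays on 6 of the 7 probe sets. Without that array the calls of 1434745_at, 1416122_at and 1416123_at between 6 and 2 h were lost, as they were without the 2 h replicate A, and the other 4 held without each array. The 7 probe sets read the transcripts of 1 gene and are not 7 independent measurements.

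Against untreated cells the Ccnd2 values were less uniform. At 6 h 4 of the 7 probe sets passed (1430127_a_at, 1455956_x_at, 1416123_at and 1416124_at), with differences of 0.43 to 0.82, and the other 3 had 0.35 to 0.62 (adjusted p = 0.0625 to 0.124). On 1434745_at, the Ccnd2 probe set with the highest mean, the signal was 9.51, 9.67 and 10.01 at 6 h, against 9.60, 9.46 and 9.07 in untreated cells, and these overlap. Its difference was 0.35 ± 0.15 at 6 h with all arrays (adjusted p = 0.124) and 0.20 ± 0.14 without untreated replicate C, the lowest of the 3. Without that array the calls of 1455956_x_at (0.44, adjusted p = 0.0649) and 1416123_at (0.62, adjusted p = 0.0959) were lost, and those of 1430127_a_at and 1416124_at held (adjusted p = 0.0251 and 0.0308). Without the 6 h replicate C the calls of 1455956_x_at, 1416123_at and 1416124_at were lost, and the call of 1430127_a_at held in each of the 19 settings that tested it at that threshold. On the dim probe sets, 1416123_at was below the overall median (6.07) on 7 of 12 arrays and 1416124_at on all 12. Such low values were not tested against background.

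At 2 h the 7 Ccnd2 probe sets differed from untreated cells by -0.32 to -0.02, and none passed (adjusted p = 0.533 to 0.982). At 4 h the differences were 0.19 to 0.43 with none past the threshold (adjusted p = 0.137 to 0.446). Between 2 and 4 h, 1430127_a_at and 1455956_x_at passed, at 0.49 ± 0.15 and 0.55 ± 0.17 (adjusted p = 0.045 and 0.0414). Both of these calls were lost after quantile normalization, without any 1 array of 2 h and without the 4 h replicate B or C.

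**Figure D2:**
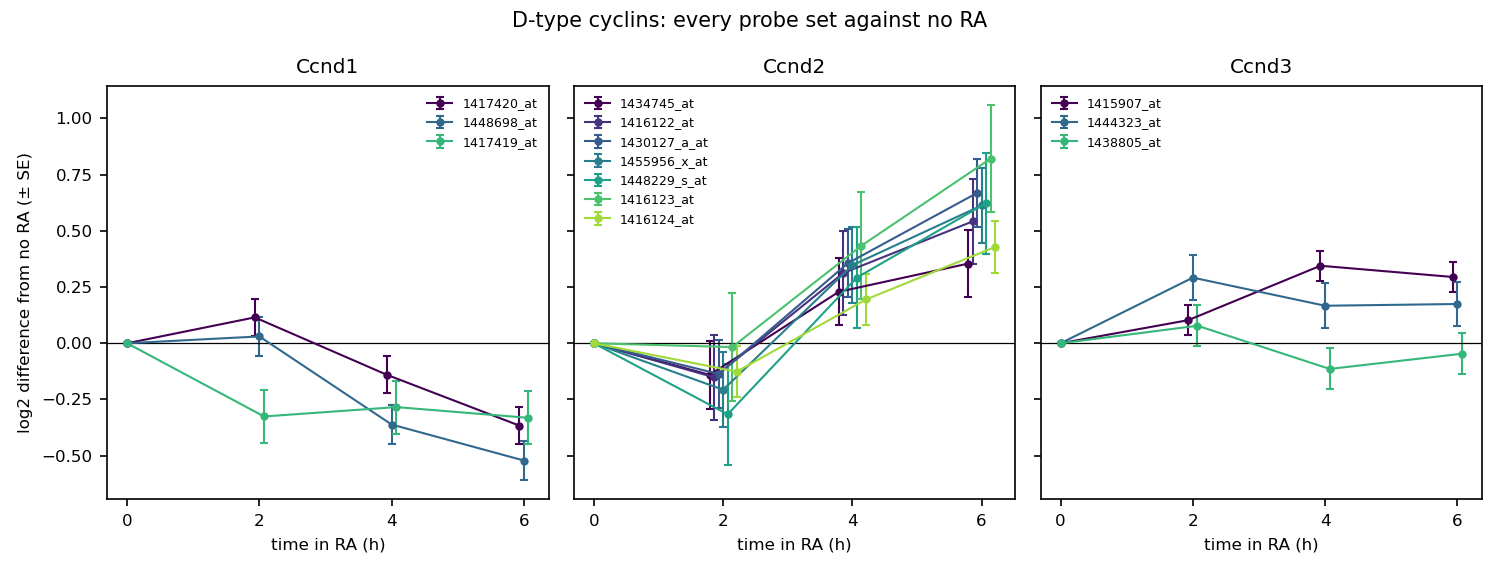
Log2 difference from no RA (vertical axes, with the SE of the limma fit) against time in RA in hours for every probe set of Ccnd1, Ccnd2 and Ccnd3, with 3 arrays in each group and points shifted sideways to keep the bars apart. At 6 h the 3 probe sets of Ccnd1 lie between -0.52 and -0.33, the 7 of Ccnd2 between 0.35 and 0.82 and the 3 of Ccnd3 between -0.05 and 0.29.

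Ccnd3 encodes cyclin D3. On its brightest probe set, 1415907_at, the arrays read 11.37, 11.25 and 11.44 without RA, 11.47, 11.39 and 11.51 at 2 h, 11.72, 11.70 and 11.68 at 4 h, and 11.65, 11.65 and 11.64 at 6 h. Every 4 and 6 h array lay above every untreated and 2 h array. The differences from no RA were 0.34 ± 0.07 at 4 h and 0.29 ± 0.07 at 6 h (SE, limma adjusted p = 0.00325 and 0.00726), folds of 1.27 and 1.23, and the step between 2 and 4 h was 0.24 ± 0.07 (adjusted p = 0.0261). The difference of 6 h from 2 h was 0.19 ± 0.07 and missed the threshold (adjusted p = 0.0557). It passed with 1 probe set a gene, the dim filter, the trended and robust prior and array weights, and without untreated replicate B or C. The step between 2 and 4 h was not called without the 2 h replicate A or B or any 1 array of 4 h.

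On the other probe sets of Ccnd3 no comparison passed. On 1444323_at the mean was 7.21 ± 0.23 in untreated cells, 7.50 ± 0.07 at 2 h, 7.37 ± 0.06 at 4 h and 7.38 ± 0.06 at 6 h (SD, n = 3 each), and on 1438805_at, which was below the overall median on all 12 arrays, the group means were 4.72 to 4.91. Only without untreated replicate A, the highest of its group, was 1444323_at called higher, at all 3 times. The correlations among the 3 probe sets were -0.42 to 0.22 over the 12 arrays. The rise of Ccnd3 rests on 1 probe set, and with the mean of the 3 probe sets its calls were lost.

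Cdk4 encodes the main kinase partner of the D cyclins, and its 3 probe sets moved together (r = 0.91 to 0.95 over the 12 arrays). Probe set 1422440_at read 11.83, 11.87 and 11.81 in untreated cells, 11.89, 11.89 and 11.71 at 2 h, 12.09, 12.05 and 12.15 at 4 h, and 12.07, 12.25 and 12.08 at 6 h. The 6 later arrays were above the 6 earlier ones without overlap. Against 2 h it rose by 0.27 ± 0.07 at 4 h and by 0.30 ± 0.07 at 6 h (SE, limma adjusted p = 0.0287 and 0.0118), 1.20-fold and 1.23-fold.

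The other Cdk4 probe sets, 1422441_x_at and 1422439_a_at, were also higher than at 2 h, by 0.21 ± 0.06 and 0.25 ± 0.07 at 4 h and by 0.22 ± 0.06 and 0.30 ± 0.07 at 6 h (adjusted p = 0.0257, 0.0253, 0.0181 and 0.00703). The 4 h calls against 2 h, on all 3 probe sets, were lost without any 1 array of 4 h and without the 2 h replicate C, which was the lowest of its group. At 6 h those of 1422441_x_at and 1422440_at were lost without the 2 h replicate C or the 6 h replicate B, and that of 1422439_a_at held without each array. Against untreated cells only 1422440_at of the 3 passed, by 0.26 ± 0.07 at 4 h and 0.30 ± 0.07 at 6 h (adjusted p = 0.0286 and 0.0139). The others had 0.15 at 4 h and 0.15 and 0.20 at 6 h, and on all 3 probe sets the 4 and 6 h arrays lay above the untreated ones. With the dim filter and with the trended and robust prior, 1422441_x_at was called at 4 and 6 h and 1422439_a_at at 6 h. The mean of the 3 probe sets was called at both times. At 6 h 1422441_x_at was also called with 1 probe set a gene, and 1422439_a_at without the 2 h replicate C. The 4 h call of 1422440_at was lost without any 1 of the 3 untreated arrays (0.25 and adjusted p = 0.0543 without replicate C) and without the 4 h replicate A or C, and the 6 h call without the 6 h replicate B. Array weights (4 h) and a fit of the 6 compared arrays alone (4 and 6 h) ended these calls too.

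Promoter sequence was at hand for 6 of the 10 genes, in 7 windows of 250 bases before an annotated start. The windows of Cdk4 and Ccnd3 are shown because these genes rose against untreated cells at 4 h and 6 h. Capitals mark the motifs searched that were found: the E-box CACGTG, the GC box GGGCGG, which on the other strand reads CCGCCC, and the CCAAT box. Sequences are from RefSeq (build GRCm38.p6), 5′ to 3′ on the plus strand, on which both genes lie.
Cdk4, chr10:127063285-127063534: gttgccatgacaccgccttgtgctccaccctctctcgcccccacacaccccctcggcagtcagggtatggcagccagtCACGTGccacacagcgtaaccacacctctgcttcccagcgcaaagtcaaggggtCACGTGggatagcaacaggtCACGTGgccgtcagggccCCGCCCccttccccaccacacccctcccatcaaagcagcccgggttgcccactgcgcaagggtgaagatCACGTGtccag
Ccnd3, first annotated start, chr17:47504801-47505050: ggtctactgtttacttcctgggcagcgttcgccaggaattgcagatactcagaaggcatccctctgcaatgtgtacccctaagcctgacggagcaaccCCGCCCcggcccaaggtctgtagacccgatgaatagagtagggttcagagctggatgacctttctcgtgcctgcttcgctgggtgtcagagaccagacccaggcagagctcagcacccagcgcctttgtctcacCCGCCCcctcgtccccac
Ccnd3, second annotated start, chr17:47593217-47593466: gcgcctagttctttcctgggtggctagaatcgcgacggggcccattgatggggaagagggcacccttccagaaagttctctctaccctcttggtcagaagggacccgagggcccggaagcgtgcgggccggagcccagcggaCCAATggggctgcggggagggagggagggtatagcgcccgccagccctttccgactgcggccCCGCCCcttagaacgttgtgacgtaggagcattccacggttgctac

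The Cdk4 window held 4 copies of CACGTG, at 172, 118, 98 and 11 bases before the start, and 1 GC box. CACGTG, which reads the same on both strands, is the letters that Myc-family proteins bind. At least 1 copy was found in 6.02% of 32817 promoter windows of this length and 4 or more in 0.0213%. The Ccnd3 windows held no CACGTG, 2 and 1 GC boxes, and 0 and 1 CCAAT boxes, motifs present in 32.7% and 33.8% of all windows. The Cdk6 window held 1 CACGTG and 1 TATAAA, the Ccne1 window 4 GC boxes, the Cdk2 window 5 GC boxes and 1 CCAAT, and the Cdkn1b window 1 GC box and 2 CCAAT. The letters TTTCGCGC and TTTGGCGC of E2F sites (0.256% and 0.417% of all windows), TGACGTCA (1.55%), direct repeats of AGGTCA with 2 or 5 bases between (0.00914% each), and the repeat of GGTTCA and AGTTCA with 5 bases between (0.00609%) were searched on both strands and matched none of the 7 windows. TATAAA was in 12.4% of all windows. These matches describe letters and were not tested for binding.

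Cdk6 encodes the other kinase partner of the D cyclins. Probe set 1435338_at read 9.35, 9.21 and 8.43 in untreated cells, 8.81, 8.86 and 8.84 at 2 h, 8.59, 8.64 and 8.59 at 4 h, and 8.37, 8.48 and 8.45 at 6 h. The RA groups stepped down without overlap, and untreated replicate C was at the level of 6 h. The 6 h difference from no RA was -0.56 ± 0.17 (SE, limma adjusted p = 0.0383), with overlapping arrays, and 1455287_at had -0.55 ± 0.19 (adjusted p = 0.0655).

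The Cdk6 result depends on untreated replicate C. Without it, the log2 difference of 1435338_at from no RA was -0.45, -0.68 and -0.85 at 2, 4 and 6 h (limma adjusted p = 0.00453, 6.04e-05 and 1.14e-05), and that of 1455287_at -0.52, -0.69 and -0.85 (adjusted p = 0.00984, 0.000308 and 6.38e-05). With C kept, the 6 h call of 1435338_at was lost when any 1 of the other 11 arrays was left out. Array weights, which gave C a weight of 0.251, brought both probe sets past the threshold at 4 h. Between 6 and 2 h the differences were -0.40 ± 0.17 and -0.33 ± 0.19 on these probe sets with all arrays in the fit (adjusted p = 0.124 and 0.249), and both were called in a fit of those 6 arrays alone. The dim probe set 1460291_at, below the overall median on all 12 arrays, did not follow the others (r = -0.45 and -0.42) and had 0.29 ± 0.10 between 6 and 2 h (adjusted p = 0.0644). It was called higher there in 5 settings, among them quantile normalization, array weights and leaving out untreated replicate C (limma adjusted p = 0.0448).

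Cdkn1b encodes p27, a Cip/Kip inhibitor of Cdk2 complexes. Its brighter probe set 1434045_at read 8.50, 8.63 and 9.50 without RA, 8.74, 8.71 and 8.86 at 2 h, 8.94, 8.96 and 8.89 at 4 h, and 9.07, 9.18 and 9.44 at 6 h. Among the RA arrays the groups were ordered by time without overlap, and untreated replicate C was the highest of all 12. The differences from no RA were -0.11 ± 0.20, 0.05 ± 0.20 and 0.35 ± 0.20 at 2, 4 and 6 h, and none passed (adjusted p = 0.84, 0.908 and 0.264).

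Without untreated replicate C, Cdkn1b on 1434045_at was higher than no RA by 0.36 at 4 h and 0.66 at 6 h (limma adjusted p = 0.0278 and 0.000746), with 0.20 at 2 h (adjusted p = 0.336). The difference of 6 h from 2 h was 0.46 ± 0.20 with all arrays in the fit (adjusted p = 0.122), and it was called without untreated replicate C, with array weights and in a fit of those 6 arrays alone. The other probe set, 1419497_at, lay between 5.05 and 5.50, below the overall median on all 12 arrays, and differed from no RA by 0.07 ± 0.10 at 6 h.

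Ccne1 encodes cyclin E1, the partner of Cdk2. It had the narrowest range of group means among the brightest probe sets of the 10 genes. Probe set 1441910_x_at lay between 11.72 and 12.04 over all 12 arrays and 1416492_at between 11.08 and 11.36. Their differences from no RA were -0.12 ± 0.08 and -0.11 ± 0.08 at 2 h, -0.0027 ± 0.08 and 0.0060 ± 0.08 at 4 h, and -0.09 ± 0.08 and -0.03 ± 0.08 at 6 h. None passed (adjusted p = 0.497 to 0.989), and all groups overlapped.

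Ccne2 encodes cyclin E2 and has 1 probe set. It read 8.64, 8.76 and 8.05 without RA, 8.90, 8.57 and 8.70 at 2 h, 8.84, 8.62 and 8.54 at 4 h, and 8.30, 8.30 and 8.15 at 6 h. The 6 h arrays were below those of 2 and 4 h, and untreated replicate C was the lowest of all. The difference of 6 h from 2 h was -0.47 ± 0.16 (adjusted p = 0.0503), and passed under 11 alternatives. The difference from no RA was -0.23 ± 0.16 at 6 h (adjusted p = 0.367). Without untreated replicate C the 6 h difference from no RA was -0.45 (adjusted p = 0.0131).

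Cdk2 encodes the kinase of the E cyclins. Its brighter probe set 1416873_a_at read 9.99, 9.93 and 10.06 in untreated cells, 9.83, 9.65 and 9.73 at 2 h, 9.83, 9.84 and 9.67 at 4 h, and 9.81, 9.88 and 9.71 at 6 h. Each RA group lay below the untreated arrays without overlap. The differences were -0.26, -0.21 and -0.20, each ± 0.08 (SE), and none passed (limma adjusted p = 0.126, 0.0777 and 0.101). The 4 h difference was called with the dim filter, the trended and robust prior and 1 probe set a gene, and the 6 h difference with the dim filter. The second probe set, 1447617_at, lay at 2.44 to 2.83, below the overall median on all 12 arrays.

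Rb1 encodes the retinoblastoma protein, the substrate of these kinases. Probe set 1417850_at read 8.90, 9.23 and 9.19 without RA, 9.17, 9.12 and 9.23 at 2 h, 9.68, 9.33 and 9.30 at 4 h, and 9.50, 9.42 and 9.17 at 6 h. The 4 h arrays were above the untreated ones and those of 6 h overlapped with them. The differences from no RA were 0.33 ± 0.12 at 4 h and 0.25 ± 0.12 at 6 h (SE, limma adjusted p = 0.0848 and 0.177). The dim 1444400_at had 0.45 ± 0.16 at 4 h (adjusted p = 0.0704), and the mean of both probe sets was called at 4 h. For the genes that did not pass, an adjusted p above the threshold does not show that their levels were equal.

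**Figure D3:**
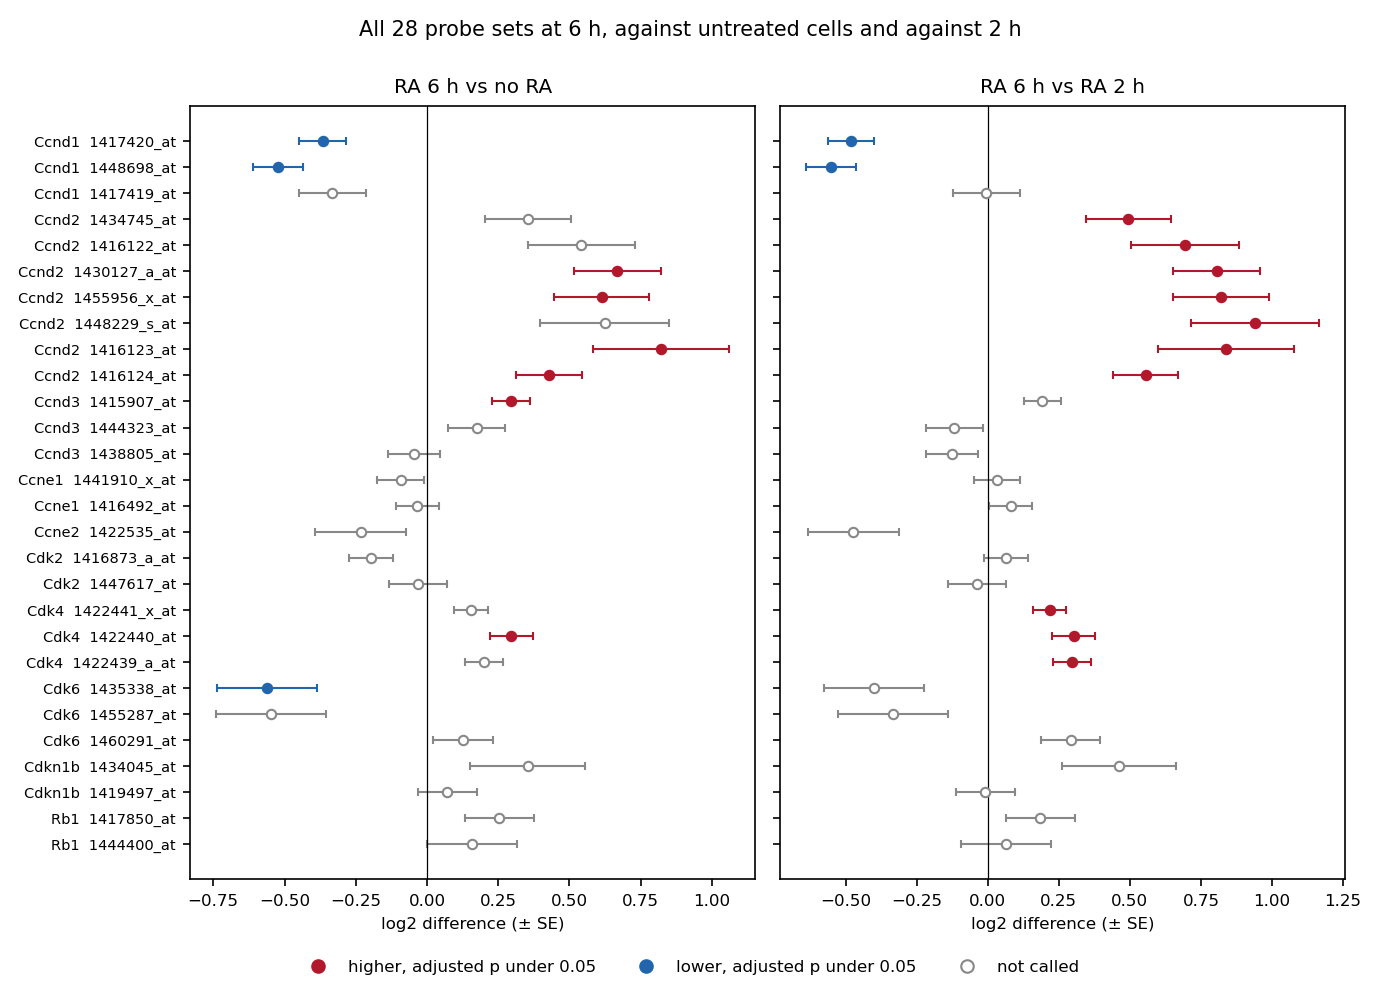
Log2 differences (horizontal axes, with the SE of the limma fit) of 6 h in RA from untreated cells (left) and from 2 h in RA (right) for all 28 probe sets, 3 arrays in each group. Filled points passed an adjusted p under 0.05: 6 higher and 3 lower on the left, and 10 higher and 2 lower on the right, where 7 of the 10 are Ccnd2 and 3 are Cdk4.

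The order of the group means can be read from the same values, without ranking 1 probe set against another. For Ccnd1 on 1448698_at it was 6 h, 4 h, no RA and 2 h from low to high, and the neighbours 6 and 4 h, and no RA and 2 h, did not differ past the threshold. For Ccnd2 on all 7 probe sets it was 2 h, no RA, 4 h and 6 h, and no pair of neighbours passed on any of them. For Cdk4 on 1422440_at 2 h and no RA (11.83 and 11.84) lay next to each other, as did 4 h and 6 h (12.10 and 12.13). For Cdk6 on 1435338_at the order was 6 h, 4 h, 2 h and no RA, with no passing step between neighbours.

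Likeness was measured for the 3 genes with the widest range of group means, Cdk6, Ccnd2 and Ccnd1, on the probe set with the highest mean, as Pearson's r over the 12 arrays with 11689 other genes. The highest r with Cdk6 was that of Sec63 (0.99), then Tent4a (0.95) and Vegfc (0.95). With Ccnd2 it was Get4 (0.95), Psmd13 (0.95) and Ttc27 (0.94). With Ccnd1 it was Ankle2 (0.97), Tgoln1 (0.96) and Hsd17b12 (0.96). These arrays share groups, and for Cdk6 also the low value of untreated replicate C, so r describes the pattern and nothing more.

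Other regulators of G1 were read from 7 lists, each gene by its probe set with the highest mean. Among the 6 other Cip/Kip and INK4 inhibitors, 0, 1 and 1 were higher and 0, 1 and 2 lower at 2, 4 and 6 h against no RA, with a median difference of -0.21 at 6 h against -0.01 for all genes. Over all genes read this way, 1.25%, 11.2% and 13.3% were higher and 0.781%, 12.5% and 13.1% lower at these times. These shares are the background for the counts of every list with all arrays. With untreated replicate C left out, 2 inhibitors were lower at 4 h and 3 at 6 h. That fit also called more of all probe sets at each time, and its share of all genes was not counted. List counts without replicate C, here and below, thus have no background. Cdkn2d, which encodes the INK4 inhibitor p19, rose by 0.43 ± 0.09 and 0.52 ± 0.09 at 4 and 6 h (SE, limma adjusted p = 0.00594 and 0.00164). Cdkn1a, which encodes the p53-inducible inhibitor p21, was at 0.08 ± 0.13 at 4 h and fell by 0.57 ± 0.13 at 6 h (adjusted p = 0.00652). The other probe set of Cdkn1a was not called at 6 h. Cdkn2c, which encodes the INK4 inhibitor p18, fell by 0.28 ± 0.07 at both times, and these calls were lost without untreated replicate A, the 4 h replicate B, or the 6 h replicate B or C.

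Of the 2 relatives of Rb1, 1 rose. Rbl2, which encodes the pocket protein p130, rose by 0.53 ± 0.10 at 4 h and 0.35 ± 0.10 at 6 h (limma adjusted p = 0.00359 and 0.0295), and the 6 h call was lost without untreated replicate A or B or any 6 h array. The other probe set of Rbl2 was called higher at 4 h but not at 6 h. Rbl1, which encodes p107, had 0.06 ± 0.07 and -0.14 ± 0.07, and another of its 4 probe sets was called lower at 4 h.

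Among the 10 E2F and DP factors, 0, 1 and 1 were higher and 1, 3 and 3 lower at 2, 4 and 6 h, with a median of -0.07 at 4 and 6 h. The medians were -0.14 and -0.12 with untreated replicate C left out, and 2 genes were then lower at 2 h. E2f1, an activating E2F, fell by 0.44 ± 0.07 and fell by 0.48 ± 0.07 at 4 and 6 h (adjusted p = 0.00155 and 0.0007), and its other 2 probe sets were called lower too. E2f7, a repressive E2F, differed by -0.33 ± 0.06, -0.21 ± 0.06 and -0.37 ± 0.06 at 2, 4 and 6 h, with the 4 h call lost without untreated replicate B or C, the 2 h replicate A or the 4 h replicate B or C (-0.20 and adjusted p = 0.0587 without untreated replicate C). Tfdp2, a dimer partner, differed by -0.49 ± 0.10 and -0.35 ± 0.10 at 4 and 6 h, the second call lost without the 6 h replicate A or B and without untreated replicate C (-0.25, adjusted p = 0.0549). Of the 4 probe sets of Tfdp2, 2 others were called lower at each of these times. E2f6, a repressor, rose by 0.35 ± 0.08 and 0.39 ± 0.08 (limma adjusted p = 0.00792 and 0.00328), and its other probe set was not called at either time.

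Of the 6 genes of the CDK-activating kinase and of the enzymes that phosphorylate or dephosphorylate CDKs, 0 were higher and 0, 3 and 3 lower at 2, 4 and 6 h, and the median was -0.20 at 4 h and -0.21 at 6 h. Cdc25b, a CDK phosphatase, fell by 0.91 ± 0.09 at 4 h and fell by 0.51 ± 0.09 at 6 h (limma adjusted p = 5.37e-05 and 0.00209). Cdc25a, the phosphatase that activates Cdk2, had -0.21 ± 0.07 at 4 h and fell by 0.27 ± 0.07 at 6 h (adjusted p = 0.0671 and 0.0223), the 6 h call lost without any 1 of 5 of the 6 arrays compared (not untreated replicate C). Cdc25a also passed at 4 h once untreated replicate C was left out (-0.29, adjusted p = 0.00455). Of the 3 probe sets of Cdc25a, only 1 other was called lower at 6 h. The inhibitory kinase Wee1 was called lower at both times (-0.27 ± 0.07 and -0.26 ± 0.07), with both calls lost without untreated replicate B or replicate C of the RA group. The other probe set of Wee1 was called lower at 4 h but not at 6 h. Mnat1, a subunit of the CDK-activating kinase, fell by 0.19 ± 0.06 at 4 h (adjusted p = 0.0488), a call lost without any 1 of 11 arrays (adjusted p = 0.0611 without untreated replicate C).

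In the list of 10 genes with a part in the turnover of G1 cyclins and p27, for or against it, 0, 1 and 2 were higher and 0, 1 and 1 lower at 2, 4 and 6 h, with a median of -0.02 at 4 and 6 h. When untreated replicate C was left out, the median was 0.06 at 4 h and -0.09 at 6 h, with 1 higher and 2 lower at 4 h and 3 higher and 1 lower at 6 h. Cul1, the scaffold of SCF ubiquitin ligases, rose by 0.47 ± 0.07 and 0.56 ± 0.07 (limma adjusted p = 0.00042 and 9.94e-05). Ambra1, the substrate receptor through which cyclin D proteins are degraded, had 0.19 ± 0.07 at 4 h and rose by 0.26 ± 0.07 at 6 h (adjusted p = 0.0843 and 0.0189). The deubiquitinase Usp28 was called lower at both times (-0.67 ± 0.12 and -0.79 ± 0.12). The Ambra1 call was lost without untreated replicate B or the 6 h replicate A. Of the 3 probe sets of Ambra1, only 1 other was called higher at 6 h. Protein levels were not measured.

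Of 7 other cyclins and CDKs measured, 0, 1 and 1 were higher and 0, 0 and 1 lower, with a median of 0.08 at 4 h and 0.12 at 6 h. Ccnc, which encodes cyclin C, rose by 0.28 ± 0.08 and 0.32 ± 0.08 at 4 and 6 h, the first call lost without untreated replicate A or B or the 4 h replicate A. Of the 5 probe sets of Ccnc, only 1 other was called higher at 4 h and 2 others at 6 h. Cdk3 had -0.21 ± 0.08 and fell by 0.29 ± 0.08 at 6 h, a call lost without untreated replicate A or C or the 6 h replicate A or B (-0.26 and adjusted p = 0.0514 without untreated replicate C, which left none of the 7 lower).

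Among 8 regulators upstream of the D cyclins, 1, 1 and 1 were higher and 0, 2 and 1 lower at 2, 4 and 6 h, with a median of -0.09 at 4 h and -0.05 at 6 h. The 6 h median was -0.13, with 2 genes lower, when untreated replicate C was left out. Mycn, the N-Myc factor whose family binds E-boxes, fell by 1.15 ± 0.17 at 4 h and fell by 1.51 ± 0.17 at 6 h (limma adjusted p = 0.000498 and 6.29e-05), the widest differences of the genes named from the lists. Of the 3 probe sets of Mycn, only 1 other was called lower at each of these times. Tcf7l1, a repressor among the Wnt effectors, rose by 0.78 ± 0.11 and 0.52 ± 0.11, and Lef1, an activator among them, fell by 0.80 ± 0.13 at 4 h (adjusted p = 0.000948) and was at -0.13 ± 0.13 at 6 h (adjusted p = 0.562). The other probe set of Lef1 was not called at 4 h. The lists were chosen with earlier results of these data in view, so their counts describe the genes and support no statement on a pathway.

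**Figure D4:**
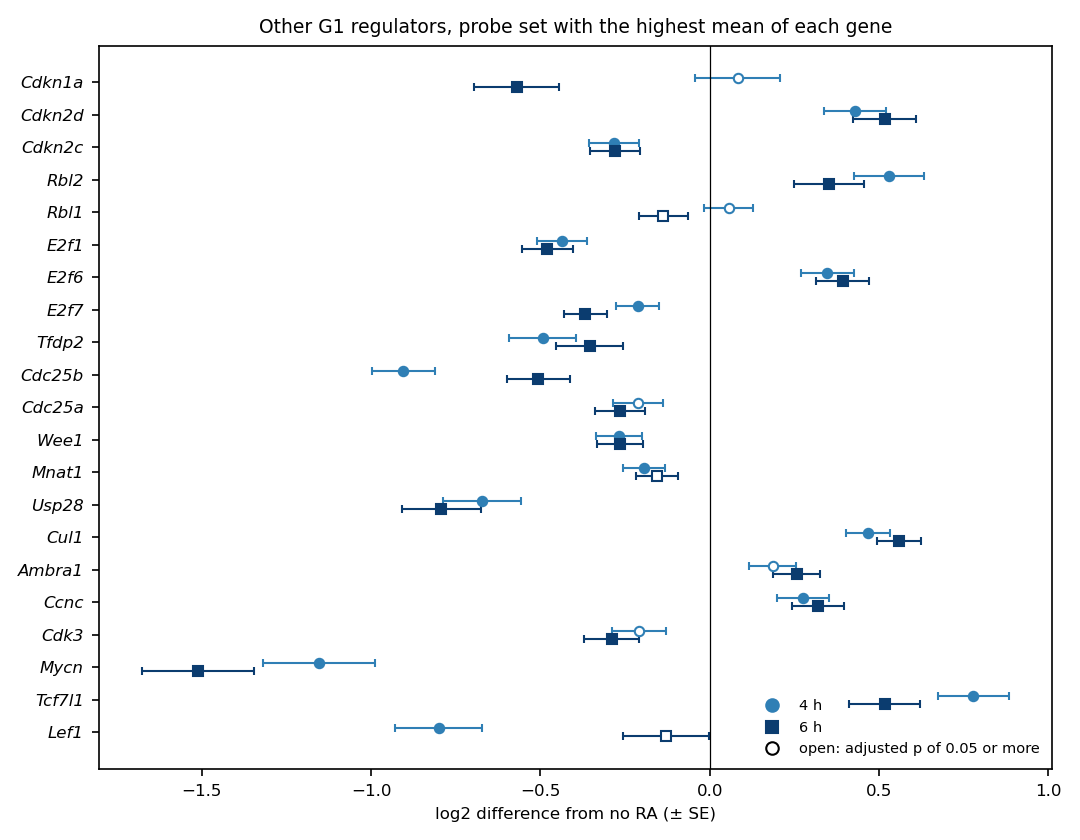
Log2 difference from no RA (horizontal axis, with the SE of the limma fit) at 4 and 6 h for the 21 genes named from the 7 lists, each on the probe set with the highest mean, with 3 arrays in each group. Filled symbols passed an adjusted p under 0.05. Mycn lies lowest (-1.15 and -1.51), and Cdkn2d, Rbl2, E2f6, Cul1, Ccnc and Tcf7l1 lie above 0 with filled symbols at both times.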

How the data were processed

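RNA from KH2 cells was hybridized to Affymetrix mouse arrays, 1 array a sample. Per the labels' protocols, cells were put on gelatin for 30 min before RNA was taken, and the texts differ on whether attached or unattached cells were kept. Of each RNA, 200 ng was biotin-labelled. The deposited values are log2 signal, with array medians of 6.05 to 6.10. The submitters' processing notes list limma 3.4.3, and the methods of summarization and normalization are not given in the sources used here. No further normalization was applied, and 3 arrays a group limit the precision.

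The 64 control probe sets were left out. Of the other 45037, 34945 carry 1 gene symbol, 932 several and 9160 none in the platform annotation, and genes were read from the first kind. All 12 arrays entered 1 fit of group means (limma 3.58.1, R 4.3.3, 8 residual and 4.23 prior degrees of freedom). Calls used Benjamini-Hochberg adjustment over all 45037, with a threshold of 0.05. A difference is the later or RA group minus the other on the log2 scale, with the SE of the fit. The genes, the lists and the tests were chosen with earlier results of these data known. From each list up to 4 genes called at 4 or 6 h were named, by size at 6 h, or the 2 widest where fewer than 2 were called. Motifs were searched as exact letters. The fit was tested on simulated data. Alternatives were quantile normalization, median centring, 1 probe set or the mean a gene, a dim filter, no cross-hybridization suffix, a trended and robust prior, array weights, only the arrays compared, a replicate block, a stricter threshold and leaving out each array. Python 3.11.15 with matplotlib 3.10.9 made the figures.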

Additional observations from a re-analysis of the deposited data

How the results depend on the processing

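Member calls were counted over the 28 probe sets under each alternative. With all arrays, 0, 3 and 9 were called at 2, 4 and 6 h against no RA, 7 and 12 at 4 and 6 h against 2 h, 0 between 4 and 6 h, and 11 by the F test. At an adjusted p under 0.01 the counts were 1 and 4 (4 and 6 h against no RA), 1 and 7 (against 2 h) and 4 (F test). Against no RA at 4 h the dim filter and the trended and robust prior gave 5 each and the 6 arrays compared alone 1. At 6 h against no RA, 1 probe set a gene gave 4, the mean over the probe sets of a gene 3 and the 6 arrays alone 5. Between 2 and 4 h, 1 probe set a gene gave 3, the mean 1, no cross-hybridization suffix 3, and array weights and the 6 arrays alone 12 each. Between 2 and 6 h, 1 probe set a gene gave 5 and the mean 4. In the F test these settings gave 3 and 3, no suffix 7 and array weights 18. The settings with 1 value a gene refit 18193 values and adjust p over them, with 10 values in place of 28. Settings moved the counts over all probe sets too. At 2 h against no RA these went from 815 to 1466 with array weights and 254 with the 6 arrays alone. The array-wide share was not set beside each member count here, so a moved count is not a result about the members. Leaving out 1 array gave 0 to 3, 1 to 7 and 5 to 11 at 2, 4 and 6 h against no RA, 1 to 10 and 8 to 18 against 2 h, 0 to 0 between 4 and 6 h and 8 to 17 by the F test, and without untreated replicate C the counts against no RA were 3, 7 and 11, where all probe sets gave 1534, 9144 and 10619 of 45037, against 815, 8422 and 9286 with all arrays. Over all probe sets, leaving out 1 array gave 355 to 1534, 6043 to 9144 and 6855 to 10619 at 2, 4 and 6 h against no RA. Against 2 h it gave 4848 to 9828 at 4 h and 7408 to 12819 at 6 h. Between 4 and 6 h it gave 7 to 578, and by the F test 9539 to 14042. The 4 h member count against no RA was 1 without the 4 h replicate A, and the 6 h member count 5 without the 6 h replicate B or C. Between 2 and 4 h the count was 3, 4 or 2 without the 2 h replicate A, B or C, and 4, 1 or 1 without the 4 h replicate A, B or C.

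Of the values of single probe sets, 1 called value turned in sign: Ccnd3 on 1415907_at between 2 and 4 h, at -0.025 with the mean of its probe sets (adjusted p = 0.82), where the other 2 probe sets go the other way. Replicate letters gave no clear pairing of the arrays. Of 18 same-letter pairs, 4 had a correlation of deviations over 0.1 (-0.16 to 0.26), and in 7 the own letter gave the highest correlation. Letter C did so at 4 h and 6 h against no RA (0.13 and 0.16) and between 4 and 6 h (0.26). These values do not show that pairing was absent. With the letter as a replicate block the counts were 0, 3 and 9 against no RA, 6 and 14 against 2 h, 0 between 4 and 6 h and 9 by the F test, and the calls of Ccnd2 on 1430127_a_at and 1455956_x_at between 2 and 4 h were lost. The causes were not tested.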
